A study of Onthophagus taurus and Onthophagus nigriventris with 71 samples.

Results

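Female thorax was set against large male thorax in the horned beetle Onthophagus nigriventris, on 12 of the 71 arrays of the series: 7 arrays labelled female and 5 labelled large male. The arrays were chosen by their labels alone. Each was a 2-colour array that compared RNA of dorsal thoracic epidermis with RNA of dorsal abdominal epidermis, a tissue without outgrowths, of the same sex and male size. Each dye channel held a pool of 4 unmanipulated, laboratory-reared pupae taken within 24 h of pupation. The females are labelled as covering a range of sizes. A further 7 arrays of small males of the same species entered the fit. The probes were made for O. taurus. A fit of 48 of the 52 arrays of that species gave the same comparison in head, thorax, legs and brain.

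In Onthophagus, horns are outgrowths of the epidermis that form in the last larval stage and are remodelled in the pupa. Large males of O. nigriventris carry a horn on the thorax, whereas large males of O. taurus carry a pair on the head. Small males of both species grow little or no horn and sneak matings rather than fight for them. Some horn tissue that forms in a larva is removed again before the adult emerges, in one sex or in both, depending on the species and the site.

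The values were the deposited log ratios, taken as log2, so that a difference of 1 is a doubling of the ratio. The direction of the ratio is not stated, nor whether it is the same in both dye orientations. The wording of the design makes thorax over abdomen the likely one, so that a negative female minus large male value would mean less thoracic relative to abdominal RNA in females. If the ratio runs the other way, every sign below turns. A pool with fewer cells of a type and a pool with less RNA per cell cannot be told apart. The labels do not say whether the pools of a group came from separate broods, so the p-values measure the spread between these arrays.

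The probes carry plate and well names, and 0 of 3840 matched the names in a table of 16956 O. taurus genes. No gene, pathway or cell type list could therefore be read, the epidermal origin of the samples could not be checked against markers, and no sequence is given. The probes fall into 2 series of 20 plates with 96 wells each, named OtL and OtP. The SD of the log ratios across probes was between 0.863 and 1.19 on 17 of the 19 O. nigriventris arrays, whereas it was 0.61 on the female array numbered 3 and 0.49 on the small male array numbered 4. The results for OtP009-A01 and the width of the arrays are given with and without female array 3. The difference at OtL001-B05 is also given without both of these arrays.

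Females and large males differed at 1 of 3840 probes (0.026%) by limma with Benjamini-Hochberg adjustment over all probes at 0.05. This probe, OtP013-C07, had a log ratio of 0.95, 0.47, 0.62, 0.40, 1.45, 0.40 and 1.80 on the female arrays, against 2.54, 4.70, 5.43, 1.78 and 3.87 on the large male arrays. All 12 values were positive. Of the 7 female arrays, 6 lay below the lowest large male array, and the exception, with thorax RNA in Cy5, exceeded 1 large male array with thorax RNA in Cy3. The mean log ratio was 0.87 ± 0.56 in females (SD, n = 7) and 3.66 ± 1.50 in large males (SD, n = 5). With the dye orientation in the model, the female minus large male difference was -2.76 ± 0.47 (SE, 95% interval -3.74 to -1.79, limma adjusted p = 0.0287), which makes the ratio 6.79 times as high in large males.

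The call on OtP013-C07 rested on several arrays. Leaving out any 1 of large male arrays 1, 2 or 3 or of female arrays 2, 4 or 6 took the adjusted p above 0.05, with the highest value, 0.176, without large male array 3. The call was also lost with array weights (0.054), without the dye term (0.179) and with only the female and large male arrays in the fit (0.0709). With the ratios of the Cy3 arrays turned in sign, the limma adjusted p was 0.798. The difference itself stayed between -3.13 and -2.41 over the 12 fits that left out 1 array.

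Small males stood beside females at OtP013-C07. Their 7 arrays had a lowest value of 0.20, a median of 1.14 and a highest of 2.92, with a mean of 1.24 ± 0.92 (SD, n = 7). The female minus small male difference was -0.37 (limma adjusted p = 0.993), and the large minus small male difference was 2.40 (limma adjusted p = 0.176). Both share arrays with the female minus large male comparison and are not independent of it. Against 0, the thorax and abdomen differed at this probe in large males (fitted log ratio 3.56) and in small males (1.17, limma adjusted p = 0.0107), and the fitted log ratio in females was 0.80 (limma adjusted p = 0.091).

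**Figure D1:**
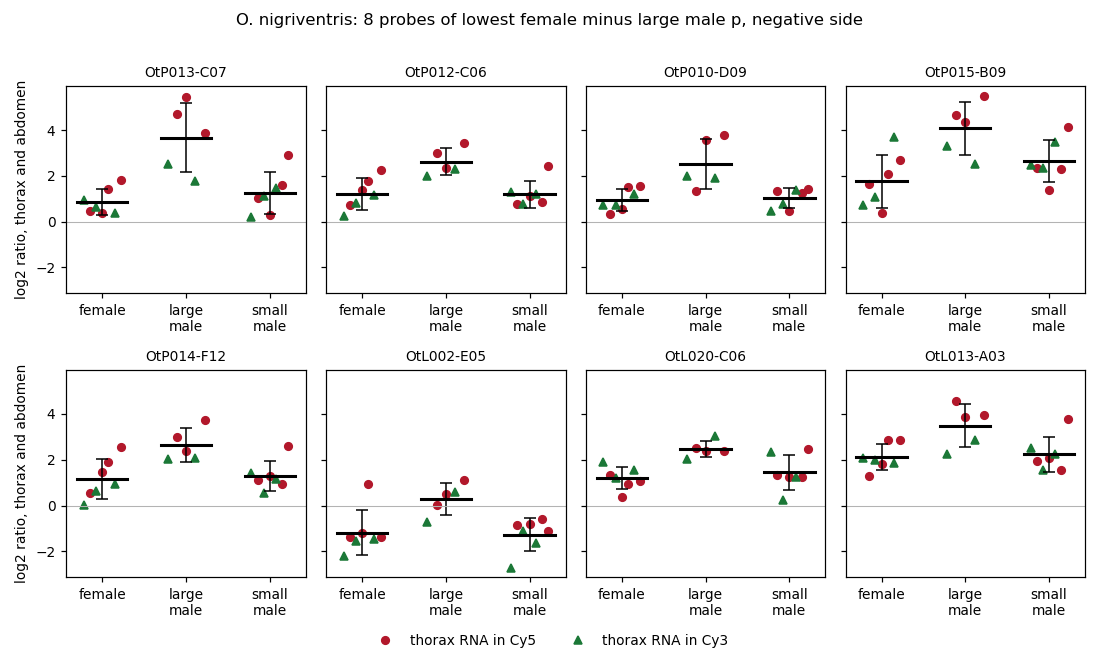
Log2 ratio of thorax and abdomen on each of the 19 O. nigriventris arrays (y axis) by group (x axis), for the 8 probes of smallest p on the negative side of female minus large male. Points are arrays, circles with thorax RNA in Cy5 and triangles with thorax RNA in Cy3, and bars are the mean and SD. Small males lie nearer to females than to large males at all 8 probes, and only OtP013-C07 passed the adjusted threshold. The 8 were chosen on female minus large male and several follow each other, so nothing is read from the place of small males.

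The other 7 probes named on the negative side, those with the next smallest p, missed the threshold (limma adjusted p from 0.303 to 0.581). They were chosen on this contrast, so their differences are a description. OtP015-B09 had a lowest value of 0.38, a median of 1.66 and a highest of 3.68 in females, against 3.33, 4.67, 4.35, 2.54 and 5.51 in large males. The groups overlapped, with 5 of 7 female arrays below the lowest large male array, and the difference was -2.31 ± 0.57 (SE). OtP012-C06 ran from 0.23 to 2.28 in females (median 1.15), against 1.99, 2.99, 2.33, 2.30 and 3.44 in large males, with 6 of 7 females below the lowest large male and a difference of -1.39 ± 0.33 (SE). OtP010-D09 ran from 0.35 to 1.56 in females (median 0.75), against 1.99, 1.35, 3.59, 1.90 and 3.81 in large males, with a difference of -1.56 ± 0.38 (SE). OtL020-C06 was the only named probe on this side whose groups did not overlap. Its female values ran from 0.39 to 1.92 (median 1.22), against 2.02, 2.49, 2.40, 3.03 and 2.36 in large males, a difference of -1.27 ± 0.35 (SE).

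At 7 of the 8 negative probes the mean log ratio was positive in females, large males and small males alike, as it was at 1056 of all 3840 probes (27.5%). Choosing probes with lower values in females favours high large male values, so nothing is read from this share. OtL002-E05 was the exception, with a mean of -1.18 ± 0.98 in females (SD, n = 7), 0.30 ± 0.70 in large males (SD, n = 5) and -1.27 ± 0.72 in small males (SD, n = 7). At this probe 6 female arrays lay between -2.20 and -1.18 and 1 stood at 0.93. Without that array the difference was -1.77 in place of -1.46, and the limma adjusted p was 0.0416 in place of 0.485. The array was picked after its value was seen. Leaving out a value that goes against a difference enlarges it, so this p gives no support. The small male mean was nearer to the female than to the large male mean at all 8 probes, and it lay between the other 2 means at 7 of them.

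Several of the negative probes followed each other closely, measured on arrays of the other species that had no part in choosing them. The 52 O. taurus arrays share tissues and dye orientations and do not all have the same reference tissue. Across these arrays, the probe most like OtP013-C07 was OtP010-D09 (r = 0.966, and r = 0.803 over the 19 O. nigriventris arrays). OtP012-C06 and OtP014-F12 formed another pair, with r = 0.973 in O. taurus and r = 0.983 in O. nigriventris. OtP012-C06 had r above 0.9 with 9 probes across the O. taurus arrays. All 9 had a negative female minus large male value in the O. nigriventris thorax, from -1.47 to -1.03, with an unadjusted p below 0.05, as 92 of 3840 probes did (2.4%). Probes that follow each other this closely may report the same RNA, and they are not separate observations. OtP015-B09 had r above 0.9 with 3 probes, at -1.79, -1.51 and -0.66 in O. nigriventris.

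No probe passed the threshold with a higher log ratio in females. The smallest adjusted p on that side belonged to OtP009-A01, whose values were 1.59, 0.23, -0.45, -0.01, 1.41, 1.01 and 0.57 on the female arrays, against -0.75, -2.20, -3.13, -1.33 and -0.67 on the large male arrays. The groups did not overlap, and the means had opposite signs, with 0.62 ± 0.75 in females (SD, n = 7) and -1.62 ± 1.04 in large males (SD, n = 5). The difference was 2.22 ± 0.45 (SE, 95% interval 1.30 to 3.15, limma adjusted p = 0.12). Small males had a mean of -0.56 ± 0.78 (SD, n = 7), between the others. Without the narrow female array 3 the difference was 2.47 with a limma adjusted p of 0.0283, and without large male array 5 it was 2.52 with 0.0440. When the narrow female array 3 and small male array 4 were both left out, it was 2.47 with a limma adjusted p of 0.0270. Female array 3 (-0.45) and large male array 5 (-0.67) held the values of their groups nearest to the other group. Leaving such an array out enlarges the difference, so these p-values give no support.

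OtP017-B03 ran from -0.02 to 1.85 in females (median 0.54), against -0.68, 0.39, -0.09, -1.24 and 0.05 in large males, with 6 of 7 female arrays above the highest large male array. Its difference was 1.22 ± 0.26 (SE), the smallest standard error among the named probes of this side, with a limma adjusted p of 0.173. OtP004-F10 also had groups that did not overlap. It ran from 0.11 to 2.70 in females (median 0.66), against -0.75, -0.73, -0.88, -0.24 and -0.55 in large males, a difference of 1.55 ± 0.41 (SE, limma adjusted p = 0.485). OtL001-B05 had the second largest size on this side, 2.13 ± 0.61 (SE), and the widest spread. Its large male values fell apart into 2.62 and 2.87 on 2 arrays and 0.14, 0.07 and 0.29 on the other 3, against 1.41 to 4.69 in females (median 3.58). Without the narrow female array 3 and small male array 4 its difference was 2.48 (limma adjusted p = 0.475). Female array 3 held the lowest female value, and leaving it out enlarges the difference, so this gives no support. The remaining 4 named probes, OtP012-G06, OtL007-A07, OtL007-E06 and OtP019-H01, had differences between 1.02 and 1.53, and their groups overlapped.

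On this side the small male mean lay between the female and the large male mean at all 8 probes, nearer to females at 5 and nearer to large males at 3. The choice of probes by the difference between the other groups favours this, so nothing is read from these counts. A mean that was positive in all 3 groups was found at 1 of the 8 probes, OtL001-B05. OtL001-B05 had 1 close partner across the O. taurus arrays, OtL016-H05 (r = 0.953), with a difference of 1.94 in O. nigriventris (unadjusted p = 0.0225). The other 7 had no probe with r above 0.9.

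**Figure D2:**
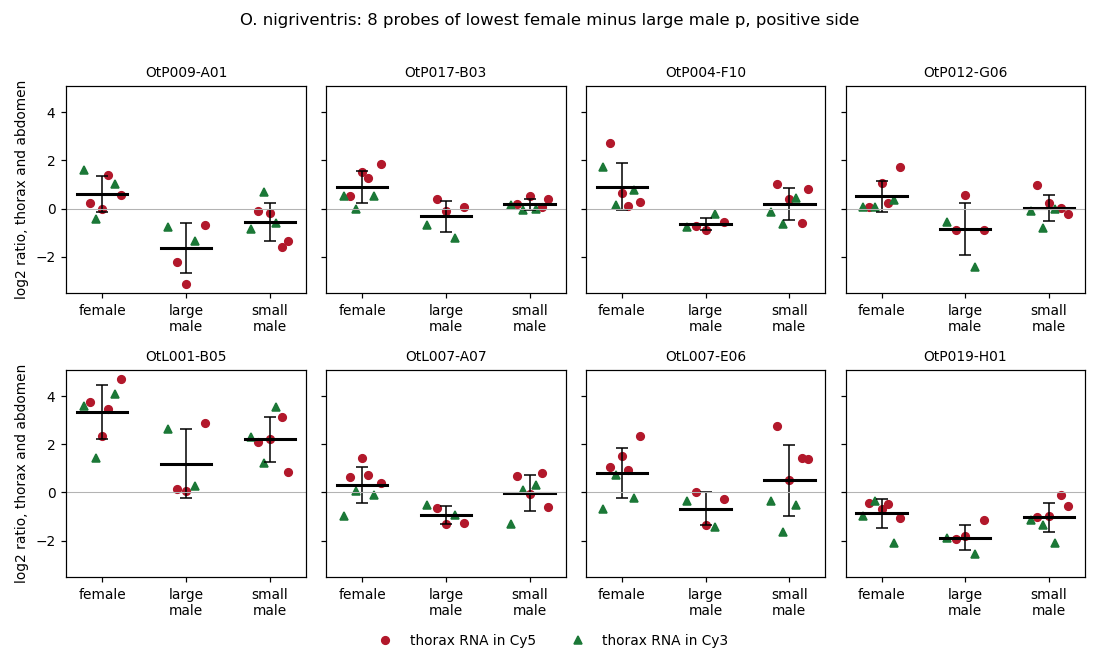
Log2 ratio of thorax and abdomen on each of the 19 O. nigriventris arrays (y axis) by group (x axis), for the 8 probes of smallest p on the positive side of female minus large male. Points are arrays, circles with thorax RNA in Cy5 and triangles with thorax RNA in Cy3, and bars are the mean and SD. Groups do not overlap at OtP009-A01 and OtP004-F10, and none of the 8 passed the adjusted threshold.

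Over all probes, female minus large male differences ran from -2.76 to 2.22 with an SD of 0.42 across probes, and the median standard error of a probe was 0.36. An unadjusted p below 0.05 was reached by 210 probes (5.47%), 118 of them positive (3.07%) and 92 negative (2.4%), where 192 are expected with no difference. The OtL and OtP probe series held 98 (5.1%) and 112 (5.83%) of these. A size above 1 was reached by 119 probes (3.1%), 64 positive (1.67%) and 55 negative (1.43%). The 95% interval lay within -1 and 1 at 1903 probes (49.6%), so that for these a difference of more than a doubling is outside the interval, and for the other probes the arrays leave such a difference possible.

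Arrays on which all females lay on one side of all large males were found for 7 probes (0.182%), 3 with females lower (0.0781%) and 4 with females higher (0.104%). Beside OtL020-C06, OtP009-A01 and OtP004-F10, these were OtL018-F08 (-0.68 ± 0.24) and OtP018-B06 (-0.66 ± 0.27) with females lower, and OtL017-A04 (0.76 ± 0.24) and OtP011-B03 (0.65 ± 0.25) with females higher (difference ± SE). The last 4 were picked out after their values were seen. OtP013-C07, the only probe past the threshold, was not among the 7.

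**Figure D3:**
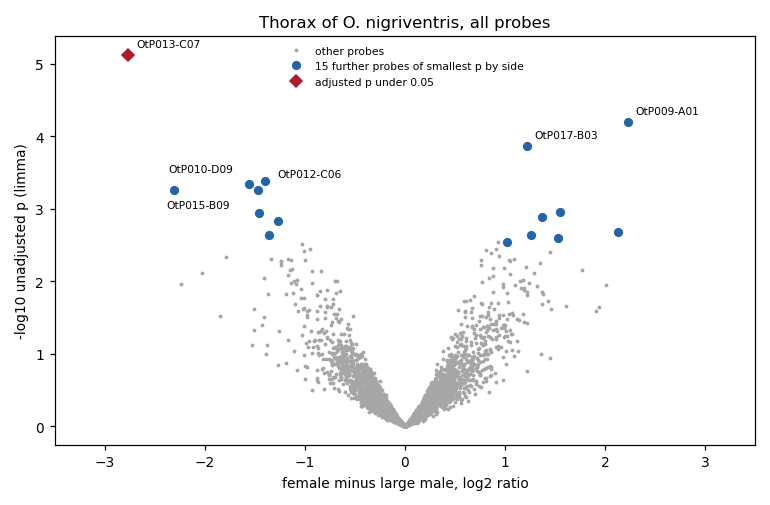
Female minus large male difference in the O. nigriventris thorax (x axis, log2 ratio) against the unadjusted limma p (y axis, -log10) for 3840 probes. OtP013-C07, the diamond, stands alone at -2.76, and the other 15 probes of smallest p, 7 negative and 8 positive, lie between 1.02 and 2.31 in size with an adjusted p of 0.05 or more.

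The other comparisons of the species share arrays with this one and gave no call. Female minus small male had 0 calls by limma at an adjusted p of 0.05 and 138 probes (3.59%) with an unadjusted p below 0.05. Large minus small male had 0 calls by limma and 266 probes (6.93%) with an unadjusted p below 0.05. The SD across probes was 0.42 for female minus large male, 0.35 for female minus small male and 0.44 for large minus small male, beside median standard errors of 0.36, 0.32 and 0.36. The thorax and abdomen themselves differed at far more probes, with 528 of 3840 probes called in females (13.8%), 485 in large males (12.6%) and 578 in small males (15.1%). These counts, and that of the dye term below, take the ratios of both dye orientations to have been deposited in one direction.

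The dye term was called at 863 probes (22.5%), and its SD across probes was 0.85. Arrays of the same orientation correlated at a mean r of 0.515 within a group and 0.491 between a female and a large male array. Arrays of opposite orientation correlated at 0.154 within a group and 0.169 between a female and a large male array. A mean log ratio of a group is therefore a mean over both orientations, and the comparison was repeated within each.

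With thorax RNA in Cy5 (4 female and 3 large male arrays), OtP013-C07 had a difference of -3.63, and with thorax RNA in Cy3 (3 female and 2 large male arrays) it had a difference of -1.50. In Cy5 the female arrays ran from 0.40 to 1.80 and the large male arrays from 3.87 to 5.43. In Cy3 the female arrays ran from 0.40 to 0.95 and the large male arrays from 1.78 to 2.54. The groups did not overlap in either orientation. The difference between orientations was -2.13 ± 0.85 (SE, limma unadjusted p = 0.0214, limma adjusted p = 0.859). OtP009-A01 had 2.55 in Cy5 and 1.76 in Cy3, again without overlap in either. Both probes were named on the pooled contrast and each orientation held few arrays, so nothing is read from the lack of overlap.

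Over all probes, the within-orientation differences, which share no array, had a correlation of -0.0341, and 46.1% of the probes had one sign in both. The 16 named probes had one sign in both, which the choice of probes by the pooled p favours. A test of the difference between orientations called 0 probes by limma, with 212 probes (5.52%) at an unadjusted p below 0.05. The probes of smallest p were OtL010-C08, with a female minus large male value of 1.21 in Cy5 and -1.55 in Cy3, and OtP019-D01, with -1.33 in Cy5 and 1.35 in Cy3 (limma adjusted p = 0.753 for both). At these 2 probes the groups did not overlap in either orientation and stood in opposite order. Their choice by the difference between orientations favours this, and few arrays make separate groups more likely, so nothing is read from it.

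**Figure D4:**
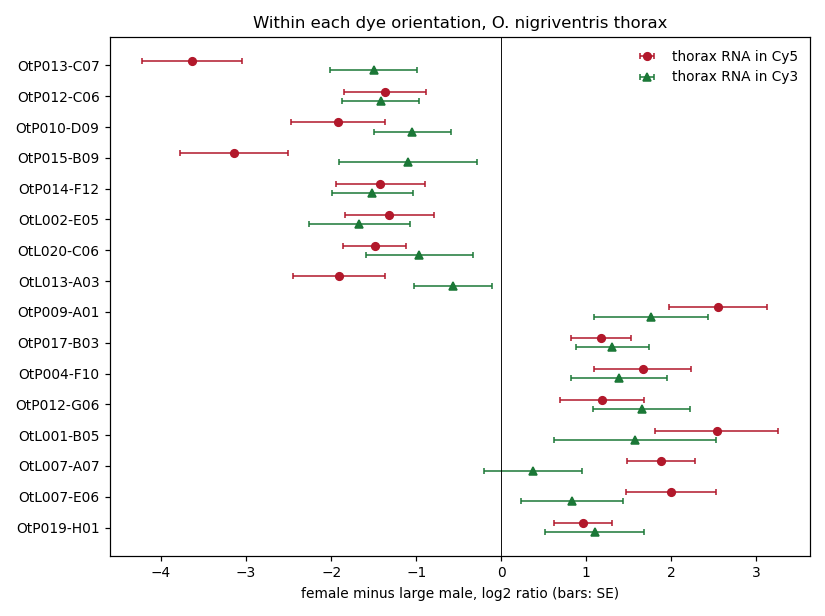
Female minus large male difference (x axis, log2 ratio) of the 16 named probes (y axis) within each dye orientation, with thorax RNA in Cy5 (4 female and 3 large male arrays) or in Cy3 (3 female and 2 large male arrays). Points are fitted differences and bars are SE. OtP013-C07 stands at -3.63 in Cy5 and -1.50 in Cy3, and 10 of the 16 are larger in size in Cy5.

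The width of the log ratios was compared as a single value per array. The SD across probes averaged 0.911 ± 0.142 on female arrays (SD, n = 7) and 1.02 ± 0.0737 on large male arrays (SD, n = 5), a difference of -0.105 (two-sided exact permutation test, p = 0.158). Within thorax in Cy5 the difference was -0.111 (exact p = 0.0286, the smallest that its 35 splits allow), with the 4 female arrays between 0.863 and 0.986 and the 3 large male arrays between 1.01 and 1.13. Within thorax in Cy3 it was -0.0906 (exact p = 0.8, where 0.1 is the smallest possible). The narrow female array 3 is one of the Cy3 arrays. Without it, chosen after seeing the data, the Cy3 difference turned to 0.0364, with means of 0.991 on 2 female arrays and 0.954 on 2 large male arrays, and the difference over all arrays was -0.0552 (two-sided exact permutation test, p = 0.214).

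The same sexes could be compared in O. taurus, where large males bear their horns on the head and no array is shared. Values for O. taurus come from a fit of its 48 arrays of head, thorax, legs and brain, with 4 arrays a group, which was added after seeing the values. In that fit OtP013-C07 differed in head and thorax. In the head, females had a mean log ratio of 2.07 ± 0.29 and large males one of 3.69 ± 0.50 (SD, n = 4 each), with a female minus large male difference of -1.61 (limma adjusted p = 1.02e-05). In the thorax, females had 0.96 ± 0.48 and large males 2.20 ± 0.27 (SD, n = 4 each), with a difference of -1.24 (limma adjusted p = 0.0108). The thorax call was lost in the fit of the 31 thorax arrays of both species, where the difference was -1.24 ± 0.52 (SE, limma adjusted p = 0.748). Small males had means of 1.79 in the head and 1.03 in the thorax. In legs and brain the difference was 0.29 and 0.25 (limma adjusted p = 0.768 and 0.999). OtP010-D09, its closest partner, had -1.22 in the head (limma adjusted p = 0.000649) and -1.14 in the thorax (limma adjusted p = 0.0143).

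OtL002-E05 was negative in both species. Its female minus large male difference was -1.46 ± 0.39 (SE) in the O. nigriventris thorax, where it missed the threshold, and -4.65 in the O. taurus head (limma adjusted p = 2.01e-19) and -1.21 in the O. taurus thorax (limma adjusted p = 0.00495). In the O. taurus head, females had a mean log ratio of 0.27 ± 0.34 and large males one of 4.92 ± 0.30 (SD, n = 4 each). Of the 8 named negative probes, 3 passed the threshold with the same sign in the O. taurus head, where 4.71% of all probes were called negative, and the same 3 in the O. taurus thorax, where 1.61% were. In the fit of the 31 thorax arrays 0 of the 3 passed in the O. taurus thorax, with limma adjusted p of 0.748, 0.541 and 0.496 and unadjusted p of 0.0232, 0.00902 and 0.00659. The 3 probes were, in that order, OtP013-C07, OtP010-D09 and OtL002-E05, and all 3 had already been singled out in earlier work on these O. taurus arrays. OtP013-C07 and OtP010-D09 follow each other across the O. taurus arrays (r = 0.966), so they are not separate observations.

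Of the 8 named positive probes, 1 passed in the O. taurus head, where 4.9% of all probes were called positive, and 0 in the O. taurus thorax. That probe was OtP017-B03, with 0.94 in the O. taurus head (limma adjusted p = 0.0116) and 0.29 in the thorax (limma adjusted p = 0.542). OtP009-A01 had 0.08 in the O. taurus head and -0.41 in the O. taurus thorax, where neither passed.

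Read from the O. taurus side, 369 probes passed the threshold in the head (9.61%), with 181 of them negative, females below large males. In the O. nigriventris thorax 107 of them were negative (59.1%, against 49.2% of all probes), with a median of -0.08 against 0.01 over all probes. An unadjusted p below 0.05 with a negative sign was reached by 12 of them (6.63%, against 2.4% of all probes). Probes among the 12 that follow each other closely, such as OtP013-C07 and OtP010-D09, are not separate observations. The 188 probes called positive in the O. taurus head had 92 negative members in the O. nigriventris thorax (48.9%) and a median of 0.00307. Of these 188, 6 had an unadjusted limma p below 0.05 with a positive sign (3.19%, against 3.07% of all probes). The O. taurus thorax had 107 calls (2.79%) in this fit, and 2 (0.0521%) in the fit that pooled the spread of both species. Of the 62 that were negative, 36 were negative in O. nigriventris (58.1%, median -0.06). Of the 45 that were positive, 31 were positive in O. nigriventris and 14 were negative (31.1% negative, median 0.13). Among all probes 49.2% were negative. Across all probes the differences in the O. nigriventris thorax correlated with those in the O. taurus head at r = 0.10, thorax at 0.13, legs at -0.02 and brain at -0.11, which describes these probes and is not a test.

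**Figure D5:**
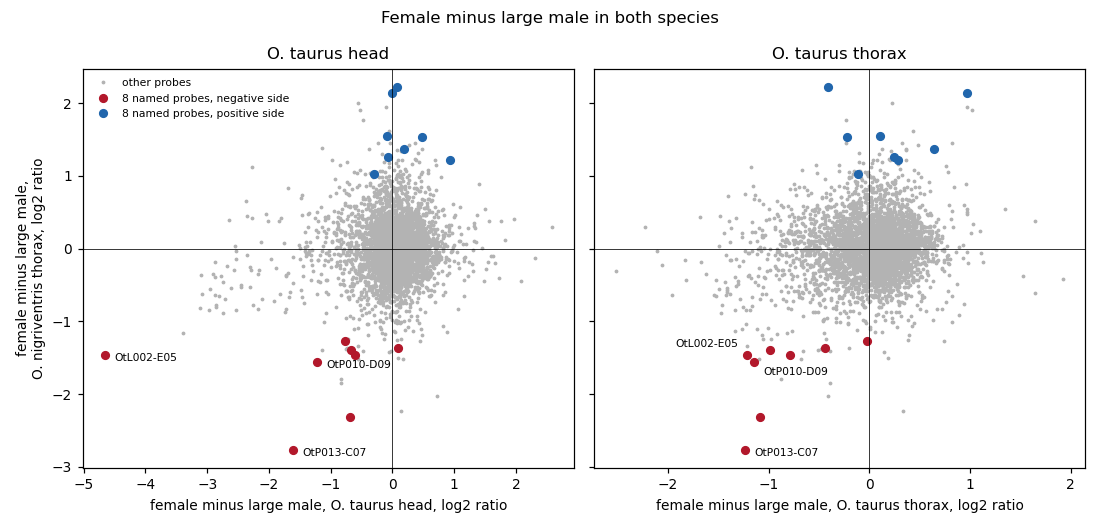
Female minus large male difference in the O. nigriventris thorax (y axis, log2 ratio) against that in the O. taurus head (left, x axis, log2 ratio) and thorax (right, x axis, log2 ratio), one point per probe. OtP013-C07 is at -2.76 in O. nigriventris, -1.61 in the O. taurus head and -1.24 in the O. taurus thorax, and the 8 named positive probes lie between -0.30 and 0.94 in the O. taurus head.

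Probes that earlier work on these data named for the O. taurus thorax or head had these values in O. nigriventris. OtP005-E03 had a difference of -0.30 ± 0.40 (SE) in the O. nigriventris thorax and -2.51 in the O. taurus thorax. OtP004-A07 had 0.29 ± 0.55 (SE) in O. nigriventris and -2.23 in the O. taurus thorax. OtP005-C05 had 0.38 in O. nigriventris and 1.65 in the O. taurus thorax, and OtL007-H04 had -0.18 in O. nigriventris and 1.13 in the O. taurus thorax. OtL006-A04, at -3.40 in the O. taurus head, had -1.17 ± 0.60 (SE) in the O. nigriventris thorax (limma adjusted p = 0.983).

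The species difference itself was tested in a fit of all 31 thorax arrays, and 0 probes were called by limma, with 177 (4.61%) at an unadjusted p below 0.05. The probe of smallest p was OtP009-A01, where female minus large male was 2.64 ± 0.59 (SE) higher in O. nigriventris than in O. taurus (limma adjusted p = 0.451). OtL018-C11 followed with 2.08 ± 0.50 (SE). There, females had a mean of -0.01 and large males of 0.03 in O. nigriventris, against -1.57 in females and 0.54 in large males in O. taurus. OtP002-A03 (1.53) and OtP005-E03 (2.21) came next, with limma adjusted p of 0.605 and 0.62. At OtP013-C07 the species difference was -1.54 ± 0.67 (SE, limma unadjusted p = 0.0290, limma adjusted p = 0.997). How the fit of O. taurus probes to O. nigriventris RNA moves these values was not tested.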

How the data were processed

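The authors deposited normalised log ratios for 71 arrays, each with 3840 probes, and 0 values were missing. They were taken as log2, since the submitters' processing notes name limma. The sources used here name no limma version, background correction or direction of the ratio. Per the labels' protocols, column-purified RNA was amplified with T7 polymerase before Cy5 or Cy3 was coupled to it. Thorax RNA was in Cy5 on 11 and in Cy3 on 8 of the 19 O. nigriventris arrays. Female and large male arrays of opposite orientations correlated above 0 on average (mean r of 0.154 within a group and 0.169 between groups). The ratios were left as deposited. This r cannot settle their direction, because a dye effect larger than the tissue effect would make it positive for unturned ratios as well. The lowest r over all pairs of the 19 arrays was -0.146. With the Cy3 ratios turned, OtP013-C07 had a limma adjusted p of 0.798. The depth of array data is limited by the number of arrays, and no spot intensities were used.

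limma 3.58.1 (lmFit, eBayes; R 4.3.3) fitted the 19 arrays with 3 groups and a dye term, and the 31 thorax arrays of both species for the species difference. The 48-array O. taurus fit was added after seeing the values. P-values were adjusted by Benjamini-Hochberg over 3840 probes, with a threshold of 0.05. Figures used Python 3.11.15 and matplotlib 3.10.9. The fit was tested on simulated data.

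Probes were named by rule: the 8 largest differences per direction past the threshold, filled by smallest p; the 4 of smallest p for the species and 2 for the dye difference; the 4 with one sign and smallest larger p in both species' thorax; probes named in an earlier account; and the most alike probe by Pearson r over 52 O. taurus arrays. Members, lists and rules were chosen with earlier results of these data known. The planned gene lists could not be run, as probes have no gene names. Replicate numbers were checked for pairing: same-numbered female and large male arrays had residual correlations from -0.205 to 0.221, with 2 of 5 above 0.1, so numbers were not taken to pair arrays.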

Additional observations from a re-analysis of the deposited data

Results flagged for a closer look

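Among 51 sets of array values examined, 7 held 1 array apart from the rest of its group, where chance gives about 1 in 20. At OtL002-E05 the highest female array stood at 0.93, with the next at -1.18. At OtP019-H01 the lowest female array stood at -2.10, with the next at -1.05. The highest small male array stood apart at OtP012-C06 (2.45), OtP014-F12 (2.62) and OtL013-A03 (3.80), probes that follow each other closely. The SD of log ratios across probes was lowest on 1 female array (0.610, next 0.863) and on 1 small male array (0.494, next 0.934).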

How the results depend on the processing

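The count of female minus large male probes was 1. It was 0 with array weights, without the dye term, with only the female and large male arrays, within Cy5, within Cy3 and with the Cy3 ratios turned. It was 2 with the replicate block, which added OtP015-B09 (-2.75, limma adjusted p = 0.00557), and 2 without both narrow arrays, a setting chosen after seeing the data. Leaving out 1 array gave 0 to 2, with 0 without large male array 1, 2 or 3 or female array 2, 4 or 6, and 2 without large male array 5 or female array 3 or 5. OtP013-C07 itself had a limma adjusted p of 0.0540 with array weights, 0.179 without the dye term and 0.0709 with only the compared groups. It had 0.112 within Cy5, 1.0 within Cy3 and 0.798 with Cy3 turned.

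Large minus small male gave 0, 1 with the replicate block and 0 to 1 on leaving out an array (1 without large male array 4), and female minus small male gave 0 under every setting run. The O. taurus thorax gave 2 in the joint fit, 64 with scaled arrays (5 positive), 511 with array weights (246 positive), 86 with only the compared groups, 0 with the replicate block, 281 with one variance per species (99 positive), 107 with the O. taurus arrays alone (45 positive) and 0 to 2 on leaving out an array. The species difference gave 0, and 1 with one variance per species (OtP009-A01, limma adjusted p = 0.0233). The dye difference gave 0, and 0 to 7 on leaving out an array (7 without large male array 1, 5 without large male array 4). The difference in array width was -0.111 within Cy5 (exact p = 0.0286) and -0.126 to -0.0552 on leaving out an array, and it turned to 0.0364 within Cy3 without female array 3, a setting chosen after seeing the data. The causes were not tested.

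Signs turned at OtL007-H04 (0.000386 with array weights, 0.251 without large male array 2) and OtP004-A07 (-0.156 within Cy5, -0.489 with Cy3 turned, -0.295 without female array 1). On leaving out 1 array the values ran from -0.425 to 0.251 and from -0.295 to 0.5003. With 5 large male arrays the median 95% interval reached 0.739 to either side of a difference. The depth of each spot is not known from log ratios.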
